A study of Mus musculus with 4 samples.

Results

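The 31 genes described here are the mouse semaphorins, a family of guidance ligands, with their plexin and neuropilin receptors: 20 semaphorin, 9 plexin and 2 neuropilin genes. They were taken by gene symbol from a table of 55471 genes, and every listed symbol was present as 1 row. RNA was sequenced from sorted amacrine cells, which are mostly inhibitory neurons that shape signals in the inner retina, taken from C57BL6 mice at postnatal days 6 to 7. All mice carried the Gbx2-CreERT2-IRES-EGFP allele, in which Gbx2 drives a tamoxifen-inducible Cre and EGFP, and the Ai9 reporter, which makes tdTomato where Cre has acted. Cells with tdTomato were split by flow cytometry into GFP-positive cells (replicates 2 and 3), the study's cell type 2, and GFP-negative cells (replicates 2 and 6), its cell type 1. GFP thus marks cells in which the allele was active at sorting, while tdTomato marks cells in which Cre had acted, and both fractions carry it. RNA came from 750 to 2500 cells, and the design names 3 litters, 4 biological replicates and 1 sample of each fraction per animal; 4 libraries, 2 per fraction, were analysed here.

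Semaphorins signal mainly through plexins, whose intracellular domains act on small GTPases and so reshape the cytoskeleton of growing neurites. Secreted class 3 semaphorins mostly need a neuropilin as co-receptor with an A plexin. The transmembrane classes 5 and 6 bind A plexins directly, class 4 binds mainly B plexins, and the membrane-anchored Sema7a binds plexin C1 and integrins. In the mouse retina, Sema5a and Sema5b acting through plexins A1 and A3 are known to hold neurites of inner retinal neurons within the inner plexiform layer. Sema6a acting through plexin A4 or A2 is known to set the sublayer in which some amacrine neurites, among them those of starburst cells, arborise.

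Total counts ran from 43272827 to 44689917 in the GFP-positive libraries and from 41040667 to 41153704 in the GFP-negative libraries. Levels are CPM, read counts divided by library sizes that edgeR's TMM method had adjusted. Gbx2, the gene behind the sort, averaged 549 ± 74.8 CPM in GFP-positive cells, against 42.1 ± 19 CPM in GFP-negative cells (SD, n = 2 each, here and below), a log2 fold change of 3.71 ± 0.44 (standard error, edgeR adjusted p = 0.0118). All 9 listed amacrine markers had counts in every library, and their summed level was 2562 and 1797 CPM in GFP-positive replicates 2 and 3, against 3334 and 5148 CPM in GFP-negative replicates 2 and 6. Of the 9, 6 were lower in both GFP-positive libraries than in both GFP-negative ones, against 21.3% of all genes tested. Gad1 and Gad2, which encode the enzymes that make the transmitter GABA, were among them (edgeR adjusted p = 0.023 for Gad1 and 0.0154 for Gad2). Gad1 made the largest part of the gap, at 155 and 69.2 CPM in GFP-positive against 985 and 1766 CPM in GFP-negative cells. Slc6a9 was higher in both GFP-positive libraries, at 85.8 and 74.7 CPM against 54.3 and 31.4 CPM in the GFP-negative libraries. Pax6 and Elavl3 overlapped (log2 fold changes -0.19 and -0.22). The 12 rod photoreceptor markers, none of them at 0 in any library, summed higher in GFP-positive cells. Of the 12 rod markers, 9 were higher without overlap, as were 7 of the 9 bipolar markers, with 1 bipolar marker lower. That direction held for 22.5% of all genes tested. Their sums were 8570.2 and 14108 CPM in GFP-positive replicates 2 and 3, against 7348 and 1847 CPM in GFP-negative replicates 2 and 6. The 9 bipolar markers summed to 1338 and 1860.1 CPM in the GFP-positive libraries and to 1095 and 437 CPM in the GFP-negative libraries, and the 8 Mueller glia markers to 692 and 826 CPM in the GFP-positive libraries, against 1578 and 1932 CPM in the GFP-negative ones. Dkk3 alone made that gap, at 244 and 131 CPM in GFP-positive cells, against 1008 and 1577 CPM in GFP-negative cells. Of the others, Rlbp1, Glul, Slc1a3, Apoe and Hes1 had log2 fold changes from 0.03 to 0.61, and Aqp4 and Sox9 had -1.40 and -0.20. None of these others passed in edgeR, and Glul, Apoe, Hes1 and Sox9 overlapped between the fractions. Of the 9 endothelial and pericyte markers, summing to 109 to 122 CPM in GFP-positive and 63.6 to 92.9 CPM in GFP-negative libraries, Cdh5, Tek, Cldn5, Pdgfrb and Kcnj8 were at 0 in at least 1 library. Most of those sums was Kdr, which is also a semaphorin co-receptor, at 118 and 69.3 CPM in GFP-positive cells, against 79.7 and 58.6 CPM in GFP-negative cells. Cdh5, Tek and Cldn5 had 103, 189 and 509 counts in GFP-positive replicate 3 and at most 44 counts in any other library. Pdgfrb, Rgs5 and Cspg4 were also highest in that library, while Pecam1, Kdr and Kcnj8 were highest in others. Cone markers summed to 359 and 694 CPM in the GFP-positive libraries, against 382 and 41.9 CPM in the GFP-negative libraries. In the same order, horizontal markers had 208 and 186 against 139 and 52.1 CPM. Retinal ganglion markers had 221 and 97.9 against 303 and 352 CPM. Microglia markers had 30.9 and 95.4 against 89.5 and 55.1 CPM, and astrocyte markers 5.49 and 9.69 against 41.5 and 7.74 CPM. Starburst amacrine markers had 24 and 16.6 against 28 and 18.1 CPM. The part of other cell types in the levels of the semaphorin, plexin and neuropilin genes was not tested. In bulk RNA, fewer cells of a type and less RNA per cell cannot be told apart.

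Among the class 5 and 6 ligands and the A plexins, 5 genes had fitted changes of 2.55-fold to 12.2-fold in libraries that did not overlap. Changes of that size without overlap were not particular to them: Sema3c was 45.3-fold lower, Sema3a 3.81-fold lower and Nrp2 2.78-fold higher in GFP-positive cells. Sema6d fell 12.2-fold in GFP-positive cells and was the 1 gene of the family past the threshold, a Benjamini-Hochberg adjusted p under 0.05 in edgeR's quasi-likelihood test over all genes. Sema6a and Plxna1 were lower in both GFP-positive libraries than in both GFP-negative libraries, and Plxna2 and Sema5b were higher, but none of these 4 passed. Of the 31 genes, 29 passed the filter on low counts and were tested; Sema3g and Plxnb3 did not pass it. Among the 29, 1 was called (3.45%), against 1.1% of all 17940 genes tested, or 0.87% for calls in the lower direction and 0.234% in the higher. At an unadjusted edgeR p under 0.05, 7 were lower and 3 higher, that is 24.1% and 10.3%, against 7.34% and 5.24% of all genes tested. The libraries of the fractions did not overlap for 18 of the 29 genes (62.1%), against 43.8% of all genes tested. GFP-positive cells were higher for 8 of them and lower for 10, directions that held for 22.5% and 21.3% of all genes tested. A log2 fold change below 0 was found for 17 of the 29, against 47.6% of all genes tested. Their median log2 fold change was -0.29, that of all genes tested 0.04, and the median absolute log2 fold change was 0.73 against 0.47. With 2 libraries per fraction, an exact permutation test of 1 gene cannot go below p = 0.333, so each edgeR call rests on the spread shared across genes.

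**Figure D1:**
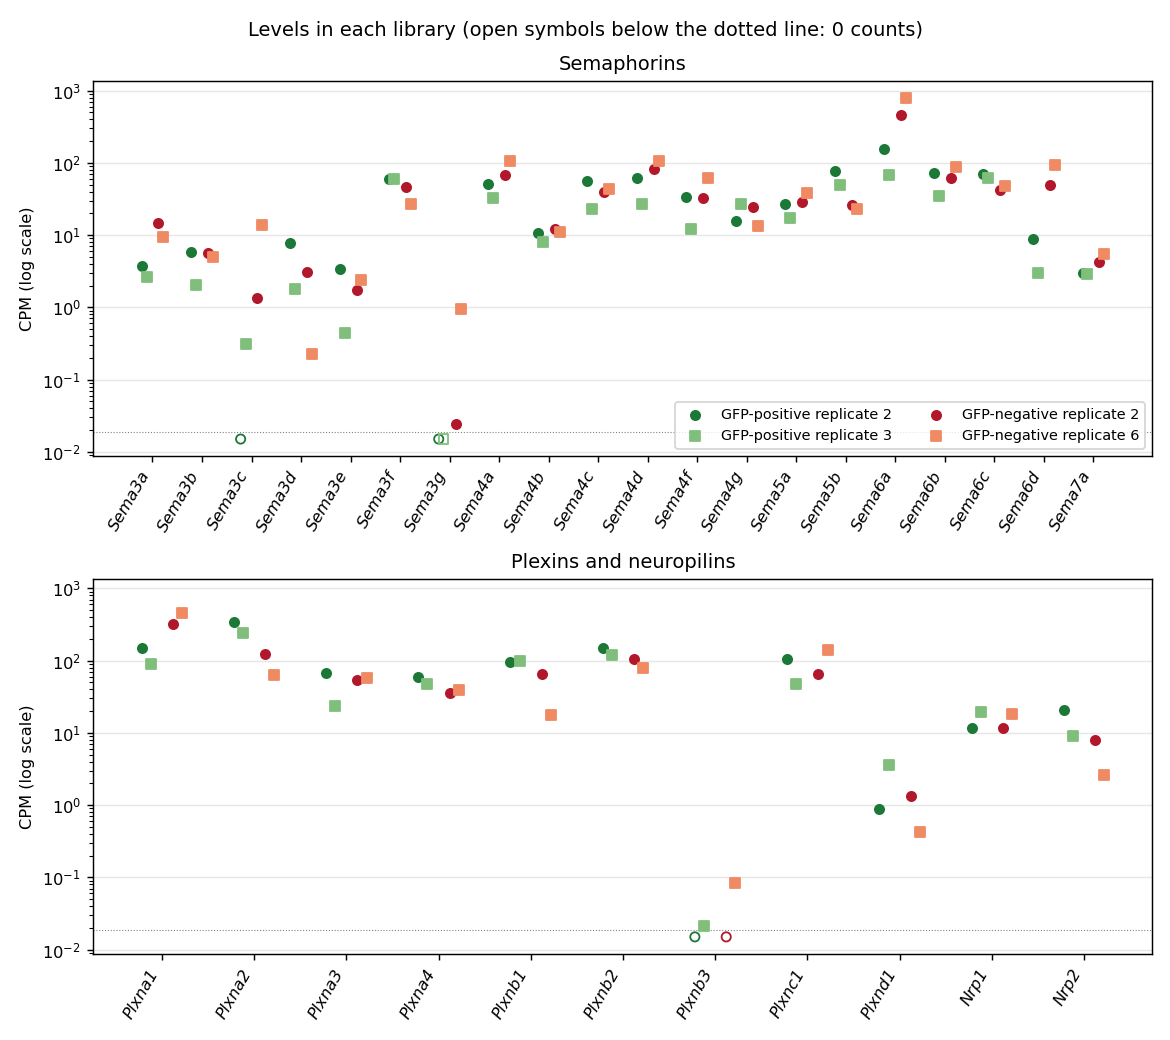
CPM (log scale) of each semaphorin, plexin and neuropilin gene in the 2 GFP-positive (green) and 2 GFP-negative (red) libraries, with libraries at 0 counts drawn as open symbols below the dotted line. Sema6a reaches 788 CPM in GFP-negative replicate 6 and stands at 67.8 CPM in GFP-positive replicate 3; Plxna2 and Sema5b lie higher in both GFP-positive libraries.

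Sema6d (ENSMUSG00000027200, plus strand, GRCm38 chromosome 2, 124089969 to 124667770) encodes a transmembrane ligand that acts through plexin A1, known in the mouse for its part in routing retinal ganglion cell axons at the optic chiasm. It stood at 8.81 and 2.94 CPM in GFP-positive replicates 2 and 3, from 403 and 140 counts, and at 49.2 and 94 CPM in GFP-negative replicates 2 and 6, from 2057 and 3366 counts. Both GFP-positive libraries lay far below both GFP-negative ones, and within each fraction the libraries differed too. The log2 fold change came to -3.61 ± 0.56 (edgeR adjusted p = 0.0271). The edgeR call was lost without GFP-positive replicate 3 (adjusted p = 0.131) or GFP-negative replicate 6 (adjusted p = 0.212), with no filter on low counts (adjusted p = 0.0506) and with the older form of the edgeR fit (adjusted p = 0.104). In limma-voom the gene missed the threshold as well (adjusted p = 0.0553). The log2 fold change was between -4.62 and -3.03 in the 4 fits that each left out 1 library. RefSeq places 2 start sites for Sema6d far apart on GRCm38.p6, and counts per gene do not tell which of them these cells used. The 250 bases before each start are printed because this is the called gene, from chr2:124089719-124089968 and chr2:124653331-124653580 (plus strand, 5′ to 3′). Capitals mark the letters TAAT, or ATTA on the other strand, the core that homeodomain proteins such as Gbx2 are known to bind.
Sema6d first start: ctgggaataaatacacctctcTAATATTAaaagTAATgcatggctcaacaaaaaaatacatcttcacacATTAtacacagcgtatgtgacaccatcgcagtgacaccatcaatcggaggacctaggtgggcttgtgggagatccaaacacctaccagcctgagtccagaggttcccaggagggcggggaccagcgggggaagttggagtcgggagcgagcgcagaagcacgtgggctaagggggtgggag
Sema6d second start: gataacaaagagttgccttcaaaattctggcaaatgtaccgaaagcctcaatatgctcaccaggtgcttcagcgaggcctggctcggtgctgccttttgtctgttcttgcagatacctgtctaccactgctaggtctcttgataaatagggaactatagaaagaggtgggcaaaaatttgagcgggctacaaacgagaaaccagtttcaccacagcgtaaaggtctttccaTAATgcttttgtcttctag
The first window held 4 such matches, 9 CG dinucleotides and 52.4% G or C. The second held 1 match, 6 CG dinucleotides and 45.2% G or C. TAAT or ATTA occurred in 54.9% of all 32851 RefSeq windows of the same length, so a match is common and shows no site. The windows of all promoters had a median of 52.4% G or C and 6 CG dinucleotides.

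Sema6a (ENSMUSG00000019647, on chromosome 18) encodes the ligand of the plexin A2 and A4 pathway. It had 155 and 67.8 CPM in GFP-positive replicates 2 and 3, against 464 and 788 CPM in GFP-negative replicates 2 and 6. The lower of the GFP-negative values was well above the higher GFP-positive one. Its log2 fold change was -2.49 ± 0.49, a 5.62-fold lower level that missed the threshold (edgeR adjusted p = 0.0617). It passed the edgeR threshold with RLE scaling (adjusted p = 0.0367), upper-quartile scaling (0.0307), library size alone (0.038) and a stricter filter (0.0353). It missed the edgeR threshold with no filter (adjusted p = 0.102), in the older fit (0.162) and with non-robust estimation (0.0662). Without mitochondrial, hemoglobin and rod marker genes it missed too (edgeR adjusted p = 0.0566). When a library was left out, whether it passed depended on which one. Its log2 fold change ran from -3.23 to -2.02 over the fits that left out a library. Sema6a was lowest in the library with the highest rod marker sum and highest in that with the lowest, as were Sema6d and Plxna1. So were Sema4a, Sema4d, Sema4f, Sema5a, Sema6b, Sema7a and Plxnc1. The rod marker sums were themselves higher in both GFP-positive libraries, and the share of all genes with this order was not computed. The part of rod RNA in the levels of these semaphorin and plexin genes was not tested. The other class 6 genes differed less. Sema6b, a ligand of plexin A4, had 72.3 and 35.2 CPM in GFP-positive cells, against 61.7 and 88.9 CPM in GFP-negative cells, and the fractions overlapped. Sema6c had 70.7 and 61.1 CPM in GFP-positive cells, against 41.6 and 47.7 CPM in GFP-negative cells (log2 fold change 0.56 ± 0.30, edgeR adjusted p = 0.496). Its fractions did not overlap, and it was the 1 class 6 gene with a positive value.

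Sema5b (ENSMUSG00000052133, chromosome 16, 35541145 to 35664732, plus strand) was higher in both GFP-positive libraries, at 75.9 and 48.7 CPM against 25.7 and 23.2 CPM in the GFP-negative libraries. Its log2 fold change of 1.35 ± 0.35 did not pass (edgeR adjusted p = 0.15). Its paralog Sema5a had 26.8 and 17.4 CPM in GFP-positive cells, against 29.1 and 37.9 CPM in GFP-negative cells (log2 fold change -0.60 ± 0.37, edgeR adjusted p = 0.564). The 2 class 5 genes thus had values of opposite sign. Within each library, which removes the scaling between libraries, the ratio of Sema5b to Sema5a per exon length was 7.49 and 7.39 in GFP-positive cells, against 2.33 and 1.61 in GFP-negative cells. The ratio of Sema5b to Sema6a on the same scale was 0.607 and 0.891 in GFP-positive cells, against 0.0688 and 0.0365 in GFP-negative cells. Neither ratio overlapped between the fractions, and both differences had an exact permutation p of 0.333, the smallest this design allows (two-sided). These ratios were chosen after the levels were seen. Sema5b was already higher, and Sema5a and Sema6a already lower, in both GFP-positive libraries. Neither ratio could therefore overlap, and the permutation p was fixed by that choice.

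Class 6 genes made up the largest share of the semaphorin level in every library once CPM were divided by exon length (CPM per kb). The 4 class 6 genes held 42% and 39% of the summed per-kb semaphorin level in GFP-positive replicates 2 and 3, against 56.6% and 63.4% in GFP-negative replicates 2 and 6. Sema6a alone held 15.3% and 11.1% in the GFP-positive libraries, against 37.3% and 44.1% in the GFP-negative libraries. Class 5 held 10.5% and 11.2% in the GFP-positive libraries, against 3.67% and 2.6% in the GFP-negative libraries. In GFP-negative cells Sema6a led at 71.3 ± 26.1 CPM per kb, followed by Sema6b at 19 ± 4.84 and Sema4a at 16.1 ± 4.91, whose spreads overlap. In GFP-positive cells no semaphorin stood apart: Sema6b averaged 13.5 ± 6.62, Sema6a 12.7 ± 7.03, Sema3f 11.4 ± 0.0788 and Sema6c 11.1 ± 1.14 CPM per kb. The summed per-kb level of all semaphorins was 116 and 69.7 in GFP-positive cells, against 141 and 204 in GFP-negative cells.

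**Figure D2:**
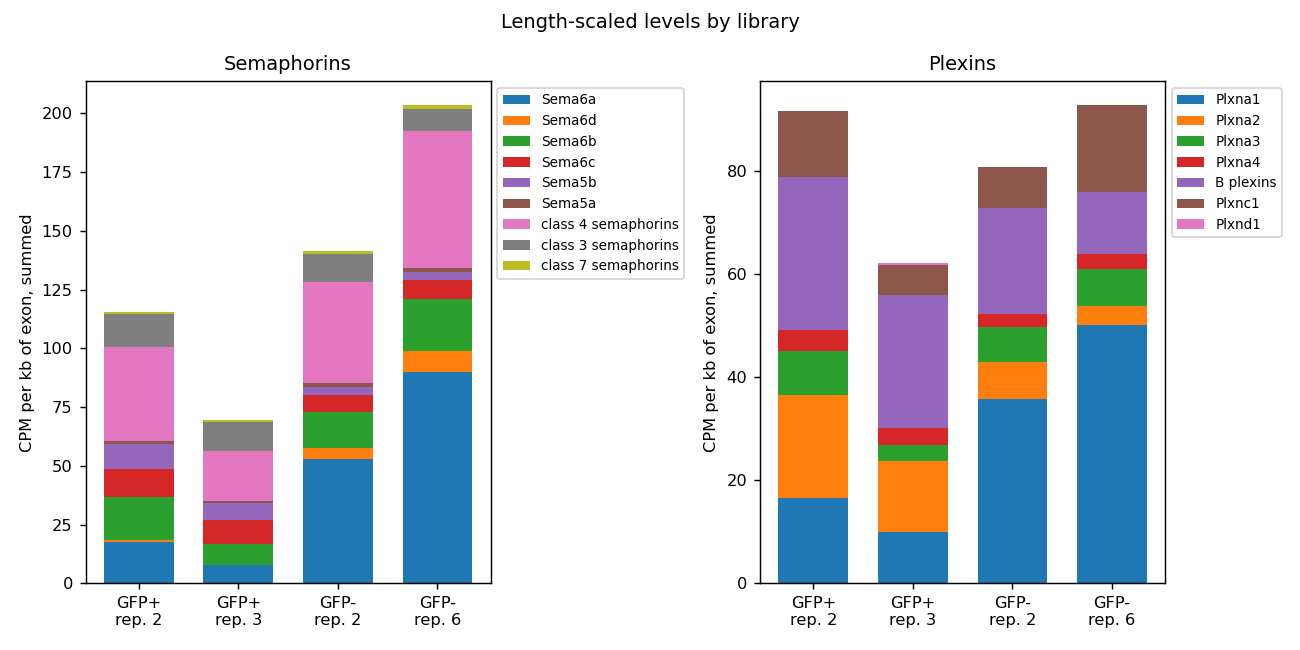
Summed length-scaled levels (CPM per kb of exon, linear axis) of semaphorins (left) and plexins (right) in each library, stacked by gene or class. Sema6a and Plxna1 take a larger part of the bars in the 2 GFP-negative libraries (37.3% and 44.1%, and 44.1% and 54.1%) than in the 2 GFP-positive ones. Plxna2 and the B plexins take a larger part in the 2 GFP-positive libraries than in the 2 GFP-negative ones.

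The A plexins, receptors for classes 5 and 6 and co-receptors for class 3, differed in opposite directions. Plxna1 (ENSMUSG00000030084, chromosome 6, 89316314 to 89362620, minus strand) had 149.9 and 89.7 CPM in GFP-positive replicates 2 and 3, against 323 and 455 CPM in GFP-negative replicates 2 and 6. The log2 fold change came to -1.70 ± 0.39 (edgeR adjusted p = 0.0947). Plxna2 (ENSMUSG00000026640, chromosome 1, 194618218 to 194816869, plus strand) had 343 and 238 CPM in GFP-positive cells, against 124 and 62.6 CPM in GFP-negative cells. The log2 fold change came to 1.64 ± 0.41 (edgeR adjusted p = 0.135). For both genes the libraries of the fractions stood apart, in opposite directions, and both kept their sign whichever library was left out. Inside each library the ratio of Plxna2 to Plxna1 per exon length was 1.21 and 1.4 in GFP-positive cells, against 0.202 and 0.0726 in GFP-negative cells. That is a mean difference of 3.42 on the log2 scale (exact permutation p = 0.333, two-sided, the smallest possible), for a pair chosen after its levels were seen. As both genes already stood apart in opposite directions, the ratio could not overlap and the permutation p was fixed. Plxna1 held 18.1% and 15.9% of the summed per-kb plexin level in GFP-positive cells, against 44.1% and 54.1% in GFP-negative cells. Plxna2 held 21.8% and 22.3% in GFP-positive cells, against 8.92% and 3.92% in GFP-negative cells.

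The upstream windows of the higher pair, Plxna2 and Sema5b, are shown for comparison with Sema6d, from chr1:194619579-194619828 and chr16:35541112-35541361 (GRCm38.p6, both plus strand, 5′ to 3′, capitals as above). RefSeq and GENCODE place these starts differently: the Plxna2 window lies wholly inside the GENCODE gene, and most of the Sema5b window does too.
Plxna2: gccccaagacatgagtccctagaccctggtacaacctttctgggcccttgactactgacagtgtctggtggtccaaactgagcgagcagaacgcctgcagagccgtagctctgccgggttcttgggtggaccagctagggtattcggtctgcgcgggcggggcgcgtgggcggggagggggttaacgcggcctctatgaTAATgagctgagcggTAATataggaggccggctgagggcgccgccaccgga
Sema5b: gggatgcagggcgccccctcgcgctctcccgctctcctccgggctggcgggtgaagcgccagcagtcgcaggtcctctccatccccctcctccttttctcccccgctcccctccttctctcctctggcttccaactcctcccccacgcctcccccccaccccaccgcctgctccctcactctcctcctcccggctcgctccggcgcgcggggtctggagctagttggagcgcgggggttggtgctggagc
The Plxna2 window held 2 matches to TAAT, 18 CG dinucleotides and 62.8% G or C. The Sema5b window held no match, 19 CG dinucleotides and 72% G or C. Across the 37 RefSeq windows found for 26 of the 31 genes, TAAT or ATTA occurred in 37.8%. The longer homeodomain letters TAATTA, the same on both strands and overlapping TAAT, occurred in none of the 37, against 4.8% of all windows. The T-box core GGTGTGA, searched on both strands, occurred in 5.4% of the 37 and 3.3% of all windows. These letters are descriptions of 1 window per start and bear on no factor.

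Plxna3 and Plxna4 differed less. Plxna3, the partner of plexin A1 as a Sema5 receptor, had 66.5 and 23.9 CPM in GFP-positive cells, against 53.5 and 57.1 CPM in GFP-negative cells, and the fractions overlapped (log2 fold change -0.29 ± 0.45, edgeR adjusted p = 0.846). Plxna4, a receptor of Sema6a, had 58.6 and 47.4 CPM in GFP-positive cells, against 36 and 39.7 CPM in GFP-negative cells (log2 fold change 0.49 ± 0.31, edgeR adjusted p = 0.576). Its fractions did not overlap.

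Set side by side as ligand and receptor, genes of the 2 lamination pathways had different mean levels in the fractions. No gene of either pathway passed the edgeR threshold. The pairings restate the levels given above and were not tested. For the class 5 pathway, GFP-positive cells had 8.8 ± 2.71 CPM per kb of Sema5b with 13.2 ± 4.7 of Plxna1 and 5.74 ± 3.82 of Plxna3. GFP-negative cells had 3.45 ± 0.254 CPM per kb of Sema5b with 42.9 ± 10.3 of Plxna1 and 7.02 ± 0.319 of Plxna3. Sema5b was thus at its higher level in the fraction where Plxna1 was at its lower level. The other class 5 ligand, Sema5a, was lower in GFP-positive cells, as Plxna1 was, at 1.18 ± 0.353 CPM per kb in GFP-positive cells and 1.79 ± 0.332 in GFP-negative cells. For the Sema6a pathway, GFP-positive cells had 12.7 ± 7.03 CPM per kb of Sema6a with 16.9 ± 4.32 of Plxna2 and 3.76 ± 0.559 of Plxna4. GFP-negative cells had 71.3 ± 26.1 CPM per kb of Sema6a with 5.43 ± 2.52 of Plxna2 and 2.68 ± 0.182 of Plxna4. Here too the ligand was low where Plxna2 was high, and the reverse. For Sema6d and plexin A1 both values were lower in GFP-positive cells: Sema6d had 0.557 ± 0.393 CPM per kb in GFP-positive cells and 6.78 ± 3 in GFP-negative cells, beside the Plxna1 levels just given. Of these genes, Sema6d alone passed the edgeR threshold.

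**Figure D3:**
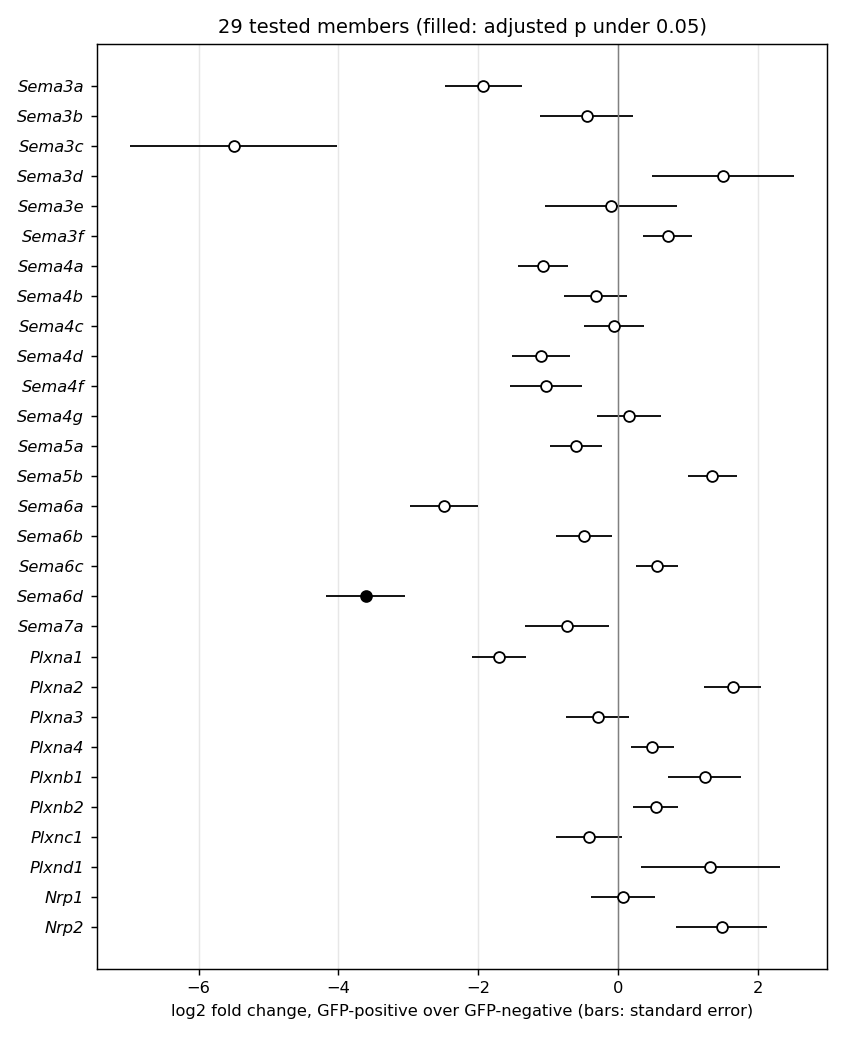
Log2 fold change of GFP-positive over GFP-negative cells (horizontal axis) with its standard error for the 29 tested genes, filled where the edgeR adjusted p is under 0.05. Sema6d, at -3.61, is the filled point; Sema6a and Plxna1 lie left of 0, and Sema5b and Plxna2 right of it.

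No class 4 ligand or B plexin was called in edgeR. Of the 6 class 4 genes, 5 had a log2 fold change below 0, against 47.6% of all genes tested (median -0.68), and 1 of the 5, Sema4c, changed sign in 3 of the alternative fits. Sema4d, a ligand of plexin B1, had 61.5 and 26.9 CPM in GFP-positive cells, against 82.9 and 106 CPM in GFP-negative cells (log2 fold change -1.10 ± 0.41, edgeR adjusted p = 0.322). Sema4a, a class 4 ligand known in mice for its part in photoreceptor survival, had 50.2 and 32.7 CPM in GFP-positive cells, against 68.1 and 106 CPM in GFP-negative cells (-1.07 ± 0.36, edgeR adjusted p = 0.272). Neither gene overlapped between the fractions, and both were lowest in GFP-positive replicate 3, the library with the most rod marker RNA. Sema4b, Sema4c and Sema4f were lowest there too, while Sema4g was highest there. The part of rod RNA in these levels was not tested. Sema4b was also lower without overlap, at 10.7 and 8.03 CPM in GFP-positive cells, against 12.3 and 11.1 CPM in GFP-negative cells. Sema4f, at 34.1 and 12.1 CPM in GFP-positive cells, against 32.3 and 62.1 CPM in GFP-negative cells, overlapped. Sema4c and Sema4g, ligands of plexin B2, overlapped too, with log2 fold changes of -0.06 ± 0.43 and 0.16 ± 0.46.

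Plxnb1, the Sema4d receptor, had 95.9 and 100.4 CPM in GFP-positive cells, against 65.1 and 17.7 CPM in GFP-negative cells (log2 fold change 1.24 ± 0.52, edgeR adjusted p = 0.376). The GFP-positive libraries were close to each other, while the GFP-negative ones were far apart; the value rested on which was used. The log2 fold change was 2.42 without GFP-negative replicate 2 (edgeR adjusted p = 0.0406) and 0.59 without GFP-negative replicate 6 (edgeR adjusted p = 1). Without GFP-positive replicate 2 or 3 the edgeR adjusted p was 0.413 or 0.801. Plxnb2 had 152 and 118 CPM in GFP-positive cells, against 107 and 79.2 CPM in GFP-negative cells (0.54 ± 0.32, edgeR adjusted p = 0.537), again without overlap. It led the plexins per exon length in GFP-positive cells, at 17.5 ± 3.12 CPM per kb, beside Plxna2 at 16.9 ± 4.32, and the pair lay within its spread. Plxnb3 was near 0, with 0 and 1 counts in GFP-positive and 0 and 3 counts in GFP-negative libraries. A count of 3 corresponds to 0.0631 to 0.0838 CPM in these libraries, for counting error only. Plxnc1, the Sema7a receptor, overlapped between the fractions, at 106 and 47.9 CPM in GFP-positive cells, against 65.7 and 140.0 CPM in GFP-negative cells. Its ligand gene Sema7a did not overlap and did not pass, at 3 and 2.86 CPM in GFP-positive cells, against 4.28 and 5.5 CPM in GFP-negative cells (log2 fold change -0.73 ± 0.60, edgeR adjusted p = 0.671).

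Of the secreted class 3 genes, those other than Sema3f had at most 1.92 CPM per kb in any library. Sema3f, which acts through neuropilin 2, stood at 59.2 and 59.7 CPM in GFP-positive cells, against 45.6 and 26.8 CPM in GFP-negative cells (log2 fold change 0.71 ± 0.35, edgeR adjusted p = 0.45). Nrp2 itself had 20.8 and 9.17 CPM in GFP-positive cells, against 8.03 and 2.6 CPM in GFP-negative cells (1.48 ± 0.65, edgeR adjusted p = 0.398). Ligand and receptor were both higher in GFP-positive cells without overlap, and neither passed. Sema3a, the axon-repelling ligand of neuropilin 1, went the other way, at 3.76 and 2.59 CPM in GFP-positive cells, against 14.6 and 9.55 CPM in GFP-negative cells (-1.93 ± 0.55, edgeR adjusted p = 0.189). Nrp1 overlapped, at 11.7 and 19.4 CPM in GFP-positive cells, against 11.6 and 18.1 CPM in GFP-negative cells. Sema3c, which can use either neuropilin, had 0 and 15 counts in GFP-positive and 57 and 490 counts in GFP-negative libraries (log2 fold change -5.50 ± 1.48, edgeR adjusted p = 0.15). Its GFP-negative level came mostly from replicate 6, and the value depended on it: the log2 fold change was -6.44 without GFP-negative replicate 2 (edgeR adjusted p = 0.0253) and -3.06 without GFP-negative replicate 6 (edgeR adjusted p = 1). Without GFP-positive replicate 3 the remaining GFP-positive library is at 0 counts, and the gene did not pass (edgeR adjusted p = 0.525). Sema3g had 0 counts in both GFP-positive libraries and 1 and 34 counts in the GFP-negative libraries, at least 14-fold lower with 3 counts over the group as the floor, and 1 library carried nearly all of it.

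The remaining class 3 genes stayed under 10 CPM in every library. Sema3b ran from 2.02 to 5.88 CPM in GFP-positive cells and from 5.05 to 5.67 CPM in GFP-negative cells. Sema3d ran from 1.77 to 7.87 CPM in the GFP-positive libraries and from 0.223 to 3.04 CPM in the GFP-negative ones. Sema3e, which binds plexin D1 without a neuropilin, had 3.43 and 0.442 CPM in GFP-positive cells, against 1.75 and 2.4 CPM in GFP-negative cells. Its receptor gene Plxnd1, best known from endothelial cells, had 0.897 and 3.6 CPM in GFP-positive cells, against 1.34 and 0.419 CPM in GFP-negative cells. All 4 of these genes overlapped between the fractions. Plxnd1 was highest in GFP-positive replicate 3, the library where the endothelial markers Cdh5, Tek and Cldn5 were highest. The part of endothelial RNA in its level was not tested.

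Genes that act with or below these receptors showed no call. None of 41 tested genes of a list of 42 co-receptors and effectors passed in edgeR, against 1.1% of all genes tested; limma-voom called 0. At an unadjusted edgeR p under 0.05, 3 were lower (7.32%) and 1 higher (2.44%), against 7.34% and 5.24% of all genes tested. DESeq2 called 1, Dpysl4, among 794 calls over all genes. Their median log2 fold change was -0.18. Timd2, a mouse Sema4a receptor, was at 0 counts in all 4 libraries. Among co-receptors Nrcam, an adhesion protein that joins plexin and neuropilin complexes, had the highest mean CPM, with 317 and 143 CPM in GFP-positive cells, against 252 and 423 CPM in GFP-negative cells. L1cam, which joins neuropilin 1 in Sema3a signalling, had 211 and 85.6 CPM in GFP-positive cells, against 260.3 and 508 CPM in GFP-negative cells (log2 fold change -1.37 ± 0.50, edgeR adjusted p = 0.306). The 5 collapsin response mediator genes, which link these receptors to microtubules, had log2 fold changes from -1.11 to -0.20, on the side of 0 where 47.6% of all genes tested lay. None of the 5 passed in edgeR, and Crmp1 and Dpysl5 overlapped between the fractions. Dpysl4 had 488 and 393 CPM in GFP-positive cells, against 825 and 1075 CPM in GFP-negative cells (-1.11 ± 0.37, edgeR adjusted p = 0.271), while Crmp1, with the highest mean CPM of the 5, had a log2 fold change of -0.26 ± 0.42. The genes with the highest mean CPM in the other roles, Rac1, Mical3, Cfl1 and Gipc1, had log2 fold changes from -0.48 to -0.10, and none passed in edgeR.

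**Figure D4:**
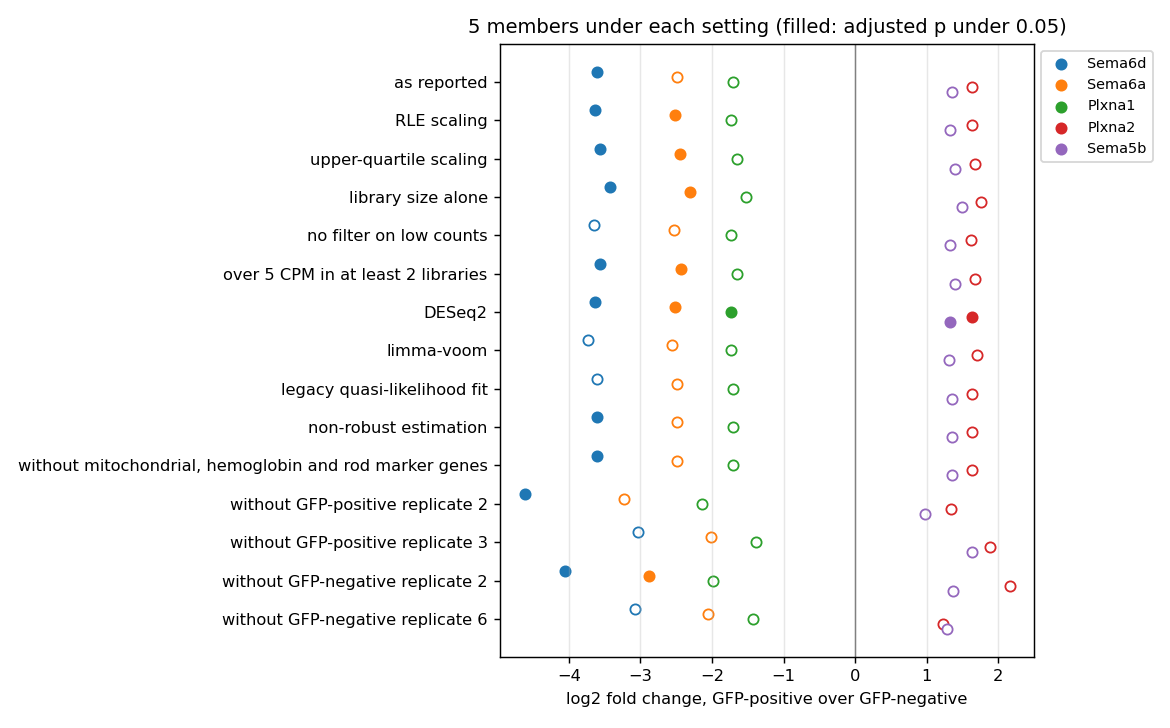
Log2 fold change (horizontal axis) of 5 genes as reported and under each alternative setting (rows), filled where the adjusted p is under 0.05. Each gene keeps its sign in every row; Sema6d ranges from -4.62 to -3.03, while which points are filled changes with the tool, the filter and the library left out.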

How the data were processed

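Amacrine cells were sorted by fluorescence from dissociated retinas, RNA was isolated with a nanoprep kit and libraries were made with Takara's SMART-Seq Ultra Low Input kit, per the labels' protocols. The authors deposited raw read counts per Ensembl gene; per the submitters' processing notes, which give no order, the tools included Trimmomatic, STAR 2.7.3a, MultiQC and limma, and the build was GRCm38. The sources used here do not say how reads were counted, on which annotation or with what strand setting. Plxna1, Plxna4, Plxnb1, Plxnc1, Sema4a, Sema4c and Nrp1 share exonic bases with another annotated gene, and each such neighbour had at most 28 counts in a library. A second deposited table, of scaled values for fewer genes, was not used.

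Fractions were taken from the fluorescence label, replicate numbers from the titles. The comparison was made in R 4.3.3 with edgeR 4.0.16, using TMM factors (0.873 to 1.1), filterByExpr (minimum count 10, minimum total 15), estimateDisp, then glmQLFit (robust, current form, with 2 residual degrees of freedom) and glmQLFTest, GFP-positive minus GFP-negative, with Benjamini-Hochberg adjustment over all 17940 genes tested and a threshold of 0.05. A standard error is the size of the log2 fold change divided by the root of its F statistic. Per-kb levels divide CPM by the union of GENCODE M21 exons. Intervals and floors cover counting error only. Chi-square per degree of freedom between library pairs was 130.9 or more, so no library was a copy. The lowest value was between replicate 2 of both fractions, against 146.2 between the GFP-positive and 176.9 between the GFP-negative libraries. Pearson correlations of log2 CPM for these pairs were 0.922, 0.915 and 0.939. Per the design text each animal was to give 1 sample of each fraction; whether replicate 2 of both fractions came from 1 animal is not stated.

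The 31 genes, the pathway list and the marker lists were chosen with earlier results of these data known. All 31 genes are reported; of the pathway list, calls and the most abundant gene of each role; L1cam, Dpysl4, Dpysl5, Timd2, Kdr and the marker genes named beside their sums were named after their values were seen. On simulated counts for the same comparison and 17940 genes, the edgeR step found 2% of the 2-fold changes, 56% of the 4-fold, 86% of the 8-fold and 94% of the 16-fold changes put in. The changed genes, 50 for each fold, were drawn from genes with a mean over 2 CPM, so recovery at lower levels was not simulated. The alternatives tried were other scalings (RLE, upper quartile, library size alone), no filter or a stricter one (2 or more libraries over 5 CPM), limma-voom (limma 3.58.1), DESeq2 1.42.0, non-robust estimation, leaving out mitochondrial, hemoglobin and rod marker genes, leaving out each library (the lone library left in a fraction is then assumed to vary like the others), and, chosen after seeing the data, the legacy quasi-likelihood fit. Upstream windows are RefSeq's, on GRCm38.p6.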

Additional observations from a re-analysis of the deposited data

How the results depend on the processing

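Of the 29 tested semaphorin, plexin and neuropilin genes, 21 kept the sign of their log2 fold change in every alternative run; the 15 reversals among 401 fits concerned the other 8, and their cause was not tested. With library size as the only scaling, Sema3e stood at 0.06 and Sema4c at 0.09. In the fits that left out a library the log2 fold changes ran from -1.43 to 0.13 for Sema3b, -2.24 to 0.73 for Sema3e, -0.87 to 0.44 for Sema4c, -0.29 to 0.61 for Sema4g, -1.23 to 0.26 for Plxna3, -1.13 to 0.23 for Plxnc1, -0.01 to 2.37 for Plxnd1 and -0.34 to 0.43 for Nrp1. The number of members called was 1 as reported, 2 (Sema6a and Sema6d) with RLE, upper-quartile or library-size scaling and with the stricter filter, 7 with DESeq2 (Sema6a, Plxna1, Sema6d, Sema5b, Plxna2, Sema3a and Sema3c), and 0 with no filter, limma-voom or the legacy fit. It was 0 to 4 over the fits that left out a library. Sema6d had an adjusted p of 0.0506 with no filter, 0.0553 in limma-voom and 0.104 in the legacy fit. Calls over all 17940 genes tested numbered 280 with RLE, 252 with upper-quartile scaling and 198 with library size alone. With the stricter filter they numbered 250 of 11503 genes tested. Over all genes 198 calls were made as reported, 106 with no filter, 794 with DESeq2, 92 with limma-voom, 48 with the legacy fit and 1 to 336 when a library was left out (the lowest when GFP-negative replicate 6 was dropped, and 5 when GFP-positive replicate 3 was). In a single run of simulated data DESeq2 made 63 false calls and edgeR 3. Those counts were drawn with the spread that edgeR had estimated, a setting that can favour edgeR. The run therefore does not tell which DESeq2 calls in the real data are false. Of the pathway genes, 0 were called as reported, 1 with DESeq2 and 0 to 0 with a library left out. Gbx2 missed the edgeR threshold without GFP-positive replicate 3 (adjusted p = 0.0603) or GFP-negative replicate 6 (0.0711). Library size alone put the median log2 fold change of all genes at 0.21, against 0.04 as reported. No paired analysis was possible because the fractions share only replicate number 2, and a block on numbers 2, 3 and 6 leaves no residual degrees of freedom. With 2 libraries per fraction the edgeR step recovered 2% of 50 simulated 2-fold changes, so most differences of that size would be missed at this replication. Genes with a mean of 2 CPM or less were not among those changed in the simulation.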

Other observations

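Of 4 transcripts annotated inside Plxna2 on its own strand and sharing no exonic base with it, Gm37783 and Gm38036 had higher counts in both GFP-positive libraries. Gm37783 had 164 and 347 counts in GFP-positive replicates 2 and 3, against 75 and 12 in GFP-negative replicates 2 and 6. Gm38036 had 62 and 67 counts in the GFP-positive libraries, against 5 and 0 in the GFP-negative libraries. The other two did not: 2900035J10Rik had 7 and 13 counts in the GFP-positive libraries, against 17 and 0 in the GFP-negative libraries, and Gm37674 had 0 in every library. The transcripts were picked after their values were seen and were not tested, and the counts are unscaled.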
